A study of Mus musculus with 8 samples.

Results

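The galectins described here are 5 rows of the count table, Lgals1, Lgals3, Lgals3bp, Lgals8 and Lgals9, out of 47729 genes listed. They were chosen by symbol and with results of the diet contrast known, so their own differences between diets are given as a description and carry no test. RNA was measured by bulk sequencing of polyA RNA from γδ T cells sorted out of visceral adipose tissue of C57BL/6 mice, 4 samples coming from animals fed control chow and 4 from animals fed a ketogenic diet (KD) for 1 week. No transgene or deletion is named for either group, and the labels give neither age nor whether a sample is 1 animal or a pool, so the spread between samples may in part be technical. Library totals ran from 19796112 to 31926427 counts. Trdc, the constant segment of the δ chain, was at 4088 ± 95.2 CPM in chow against 4312 ± 319 CPM in KD (SD, n = 4 each), where CPM is counts scaled to a common library total.

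Galectins are small lectins that bind galactose-containing sugars on glycoproteins. They are made in the cytosol, leave the cell by an unconventional route and crosslink receptors at the surface into lattices, and inside the cell they mark membranes whose sugars have become exposed by damage. Galectin-1 (Lgals1) has a single type of carbohydrate-recognition domain and acts as a dimer, galectin-3 (Lgals3) joins such a domain to a flexible tail through which it forms oligomers, and galectin-8 and galectin-9 (Lgals8 and Lgals9) carry a pair of different domains in one chain. Lgals3bp is not a galectin: it encodes a heavily glycosylated secreted protein of the scavenger receptor cysteine-rich family that galectin-3 binds. In T cells galectins are known for tuning receptor clustering, adhesion and survival, and in adipose tissue galectin-3 is best known as a product of macrophages.

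On build GRCm38, with GENCODE release M21 matched by Ensembl identifier, Lgals1 lies on chromosome 15 (78926725 to 78930465, plus strand) and Lgals3 on chromosome 14 (47367751 to 47386160, plus strand). Lgals3bp (118392751 to 118402092) and Lgals9 (78962974 to 78984946) both lie on the minus strand of chromosome 11, far apart from each other. Lgals8 lies on chromosome 13 (12439415 to 12464944, minus strand), and 155 of its 3688 exonic bases are shared with Heatr1 on the other strand. Whether the libraries kept strand is not stated, so reads in those 155 bases cannot be assigned. The exons of the other 4 members share no bases with a gene that had counts.

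The sequences upstream of the start sites of Lgals3, the member with the widest gap between diets, and Lgals9, which served as a comparison with overlapping diets, are shown as RefSeq gives them on GRCm38.p6. Each runs 5′ to 3′ toward the gene and stops before the first exon annotated in the 250 bases before that start. Earlier starts of Lgals3 and Lgals8 are annotated further upstream. Capitals mark a match to an interferon response element, searched as GAAA, any 2 bases and GAAA on either strand. The Lgals3 stretch is chr14:47373610-47373812 on the plus strand and the Lgals9 stretch chr11:78984947-78985174 on the minus strand.
Lgals3: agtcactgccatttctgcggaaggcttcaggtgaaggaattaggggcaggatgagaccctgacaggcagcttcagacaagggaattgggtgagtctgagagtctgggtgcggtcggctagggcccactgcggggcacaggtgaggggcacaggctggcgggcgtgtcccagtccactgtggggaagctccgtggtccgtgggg
Lgals9: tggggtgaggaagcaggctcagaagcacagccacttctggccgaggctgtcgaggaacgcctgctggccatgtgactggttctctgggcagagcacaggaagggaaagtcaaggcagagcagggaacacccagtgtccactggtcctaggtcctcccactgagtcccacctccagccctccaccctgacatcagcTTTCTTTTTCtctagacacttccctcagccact
In the 250 bases before the start, Lgals9 held 1 such match, beginning 55 bases upstream, and Lgals3, Lgals3bp and Lgals8 held 0. Of 32851 windows of this length in the table, 2.98% hold one. The other motifs searched on both strands were the GC box GGGCGG (32.7% of windows), TATAAA (12.4%), the AP-1 element TGANTCA (6.75%), the ROR monomer site AGGTCA (14% of windows) and the E-box CACGTG (6.02%). None of these overlaps the interferon element found. Across the 4 members with an entry, these gave a single match, a GC box that begins 7 bases before the Lgals3 start, past the end of the stretch shown. A match is a description of the letters and not a site shown to be used.

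Ordered by FPKM, the deposited level per kilobase of gene, which allows genes to be compared, Lgals1 stood far above the rest. It had 1830 ± 179 FPKM in chow against 2190 ± 288 FPKM in KD (SD, n = 4 each), which placed it at rank 36 in chow and rank 25 in KD among 13397 genes tested. Lgals3bp followed with 246.9 to 274 FPKM in chow against 341 to 408 FPKM in KD, and Lgals9 with 112 to 153 FPKM in chow against 131 to 160.3 FPKM in KD. The ranges of these 3 genes did not overlap one another within either diet.

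The lower end of the order differed between the diets. In chow Lgals3 (22.2 to 39.8 FPKM) and Lgals8 (22.96 to 38.3 FPKM) overlapped and could not be ordered. In KD Lgals8 stayed at 24.6 to 28.8 FPKM, while Lgals3 lay at 108 to 192 FPKM, a range that overlapped that of Lgals9. By mean FPKM Lgals3 moved from rank 3239 in chow to rank 890 in KD. The ratio of Lgals1 to Lgals3 in FPKM was 48.5 to 82.9 in the chow libraries and 12.02 to 22.9 in the KD libraries.

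**Figure D1:**
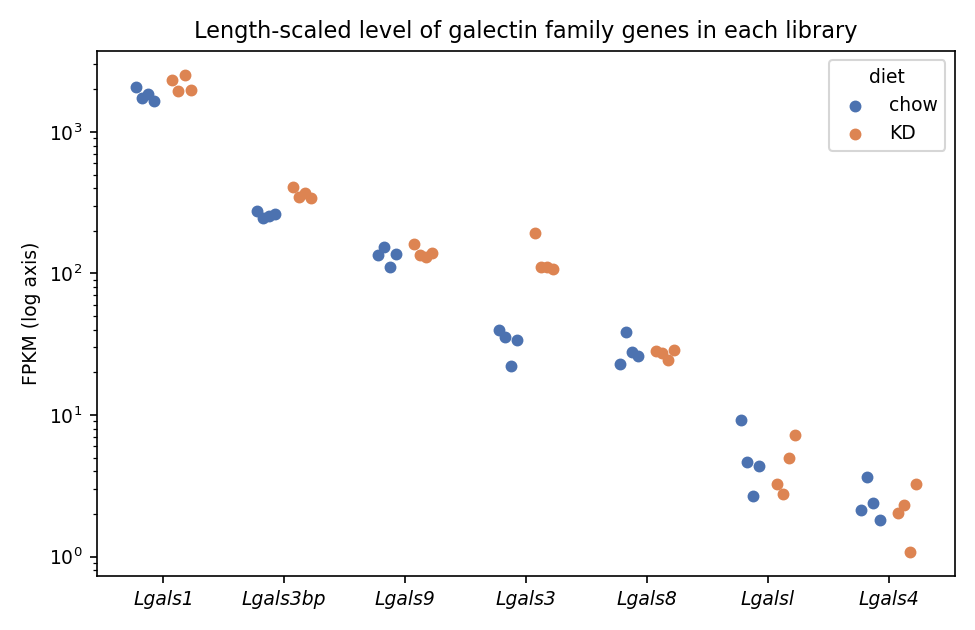
Level of 7 galectin family genes in FPKM on a log axis, 1 point per library, chow in blue and KD in orange. Lgals1 lies above 1600 FPKM in every library, and Lgals3 is the gene whose KD points (108 to 192 FPKM) sit clear of its chow points (22.2 to 39.8 FPKM) by the widest gap.

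Lgals3 was 3.91 times as abundant in KD γδ T cells as in chow. It was at 37.0, 33.1, 20.96 and 32.6 CPM in chow replicates 1 to 4, from 664 to 985 counts per library. In KD replicates 1 to 4 it was at 177, 103, 103 and 100.1 CPM, from 2046 to 3721 counts. All KD libraries lay above all chow libraries, the lowest KD value being well over the highest chow value, and KD replicate 1 stood apart above the other KD libraries. The diet means were 30.9 ± 6.93 CPM in chow against 121 ± 37.6 CPM in KD. The fitted log2 fold change (KD minus chow) was 1.97 (SE 0.23), against a spread between samples of one diet of 0.38 (SD, log2 CPM). Without KD replicate 1 it was 1.72. In bulk samples, more cells that carry a transcript and more transcript per cell cannot be told apart.

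Lgals3bp, the secreted binding partner of galectin-3, was also higher in KD, by a smaller factor. Chow replicates 1 to 4 had 469, 419, 445 and 454 CPM, and KD replicates 1 to 4 had 663, 589, 625 and 555 CPM. The diets did not overlap, and again KD replicate 1 was the highest library. The means were 446 ± 21.0 and 608 ± 46.4 CPM (SD, n = 4 each), a ratio of 1.36 and a fitted log2 fold change of 0.45 (SE 0.07).

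Lgals1, the most abundant member, had overlapping diets. Its values were 1506, 1232, 1347 and 1236 CPM in chow replicates 1 to 4 and 1663, 1401, 1843 and 1441 CPM in KD replicates 1 to 4. The highest 2 libraries were KD replicates 3 and 1, and chow replicate 1 lay above KD replicates 2 and 4. The fitted log2 fold change was 0.25 (SE 0.10).

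The levels of the tandem-repeat galectins overlapped between diets. Lgals9, whose product is a ligand of TIM-3, was at 196, 217, 163 and 204 CPM in chow replicates 1 to 4 and at 230.4, 196, 190.4 and 203 CPM in KD replicates 1 to 4. Its fitted log2 fold change was 0.07 (SE 0.10), and KD replicate 1 was the one KD library above the chow range. Lgals8, a sensor of damaged endosomes and lysosomes, was at 46.9, 75.6, 63.7 and 60.9 CPM in chow replicates 1 to 4 and at 59.0, 58.5, 55.6 and 62.1 CPM in KD replicates 1 to 4. All its KD values lay within the chow range, and its fitted log2 fold change was -0.07 (SE 0.15). The sign of the fitted value is not stable for either: that of Lgals8 was positive without chow replicate 2 (0.04) and that of Lgals9 negative without chow replicate 3 (-0.004).

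**Figure D2:**
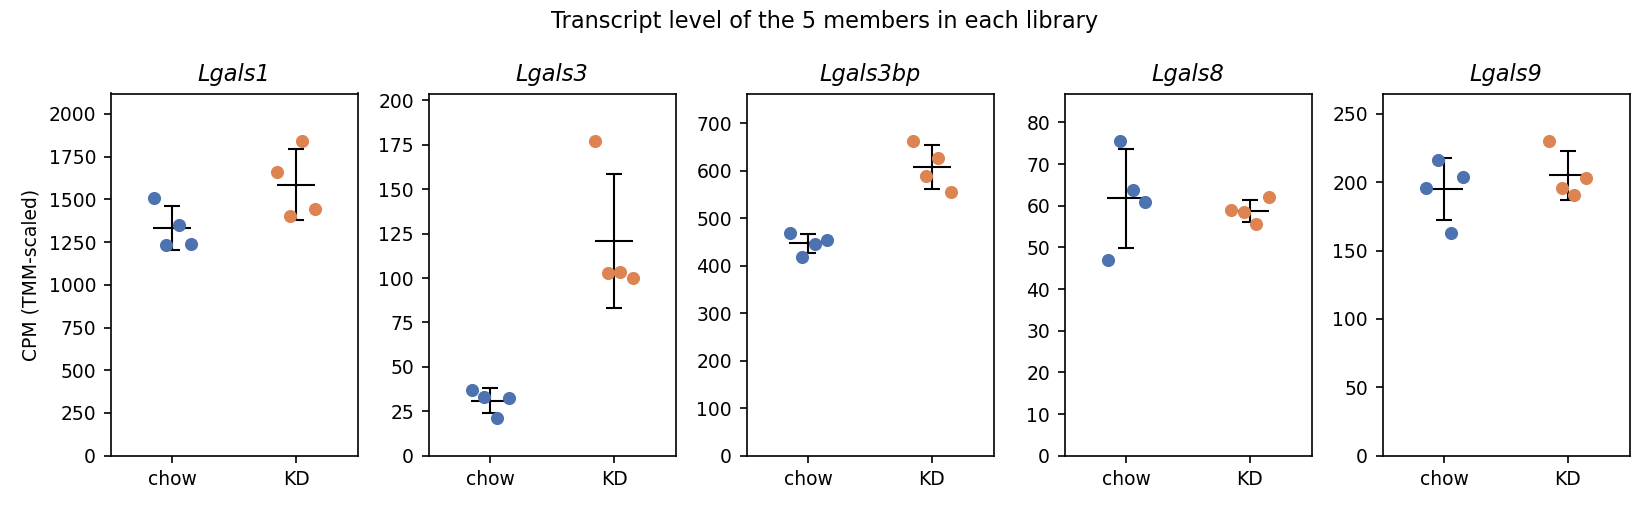
CPM of each member in the 4 chow and 4 KD libraries (points, replicates 1 to 4 from left to right), with the mean and SD as bars and axes starting at 0. Lgals3 and Lgals3bp show no overlap between diets, while Lgals1, Lgals8 and Lgals9 overlap.

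All 5 members passed the filter on low counts, and 4 of the 5 had a positive fold change (median 0.25, beside 0.007 over all 13397 genes tested). Past the threshold of the whole-table fit (edgeR's quasi-likelihood test, Benjamini-Hochberg adjusted p under 0.05) were 2 of the 5, Lgals3 and Lgals3bp, where 0.508% of all tested genes were, and 2 of the 5 had no overlap between diets, where 6.05% of all tested genes had none. Since the members were chosen on this contrast, nothing is read from these counts. Leaving out single libraries left 1 member past the threshold, Lgals3, or 0 without chow replicate 4, and leaving out KD replicates 3 and 4 together also left 0.

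The genes most like Lgals3 across the 8 libraries were Ccr6, Rom1 and Dtx1, by the root mean square difference of centred log2 CPM over 9200 protein-coding genes with a mean of at least 5 CPM. Ccr6, the CCL20 receptor of IL-17-producing γδ T cells, was nearest (difference 0.20). It had 25.1, 26.2, 17.7 and 20.00 CPM in chow replicates 1 to 4 and 114, 56.8, 59.9 and 66.0 CPM in KD replicates 1 to 4, so that KD replicate 1 was highest and chow replicate 3 lowest, as for Lgals3. Rom1, a tetraspanin known from photoreceptor outer segments, came next (difference 0.29), at 11.5 ± 1.23 CPM in chow against 47.0 ± 8.07 CPM in KD (SD, n = 4 each). Dtx1, a ubiquitin ligase and Notch target, differed by 0.30 and was at 8.11 ± 0.95 and 34.0 ± 19.2 CPM. These genes were picked for their likeness, so their values are a description. No other member had a ratio of its highest to its lowest library of 2 or more, the minimum set for this search.

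**Figure D3:**
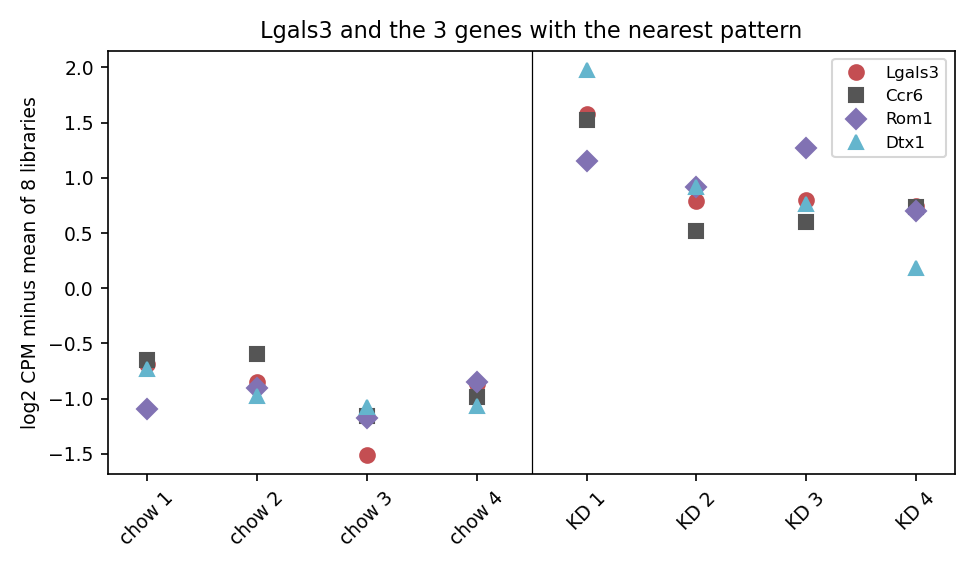
Log2 CPM minus its mean over the 8 libraries for Lgals3 and the 3 genes of nearest pattern, with 1 marker per gene and library and chow left of the line. All 4 genes lie below their mean in every chow library and above it in every KD library. KD replicate 1 is the highest library for Lgals3, Ccr6 and Dtx1, and KD replicate 3 for Rom1.

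RNA of other cells that make galectins was looked for in the same libraries. The macrophage and monocyte list held 16 markers, of which Ccr2 (1571 ± 91.2 CPM in chow against 1592 ± 112 CPM in KD) is also a γδ T cell gene. The other 15 summed to 5.98, 8.28, 6.69 and 98.9 CPM in chow replicates 1 to 4 and to 3.29, 27.7, 14.1 and 41.9 CPM in KD replicates 1 to 4. Adgre1, which encodes the macrophage antigen F4/80, was at 0 in 6 libraries and at most 0.37 CPM, and Ms4a7 was at 0 in all 8. KD replicate 1, with the most Lgals3, had the least of this marker RNA, and chow replicate 4, with the most, had 32.6 CPM of Lgals3. KD replicates 2 to 4 had more of it than chow replicates 1 to 3. The part of macrophage RNA in the Lgals3 level was not tested.

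Stromal, mesothelial and endothelial RNA was uneven between libraries. The 14 stromal and mesothelial markers summed to 36.6, 16.5, 25.8 and 215 CPM in chow replicates 1 to 4 and to 32.3, 568, 499.7 and 649.6 CPM in KD replicates 1 to 4. Of the 11 tested, 3 (Krt7, Krt19 and Postn) were called higher in KD, where 0.328% of all tested genes were. The 11 endothelial markers summed to 148, 60.3, 62.3 and 67.4 CPM in chow and to 56.1, 64.9, 477 and 767 CPM in KD. KD replicate 1, where Lgals3 and Lgals3bp were highest, lay inside the chow range for the stromal sum and below it for the endothelial sum. The upper end of that stromal range is chow replicate 4 alone. The 3 called markers exceeded every chow library in KD replicate 1. Krt19 was at 1.33 CPM there (at most 0.0749 in chow), Krt7 at 1.29 (0 in chow) and Postn at 0.52 (at most 0.0418 in chow). Sparc, the most abundant marker of the list, was at 4.24 CPM there, inside its chow range (3.57 to 37.2 CPM). Lgals1, which fibroblasts and endothelium also express, was highest in KD replicate 3, but next highest in KD replicate 1; the part of such RNA in its level was not tested.

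**Figure D4:**
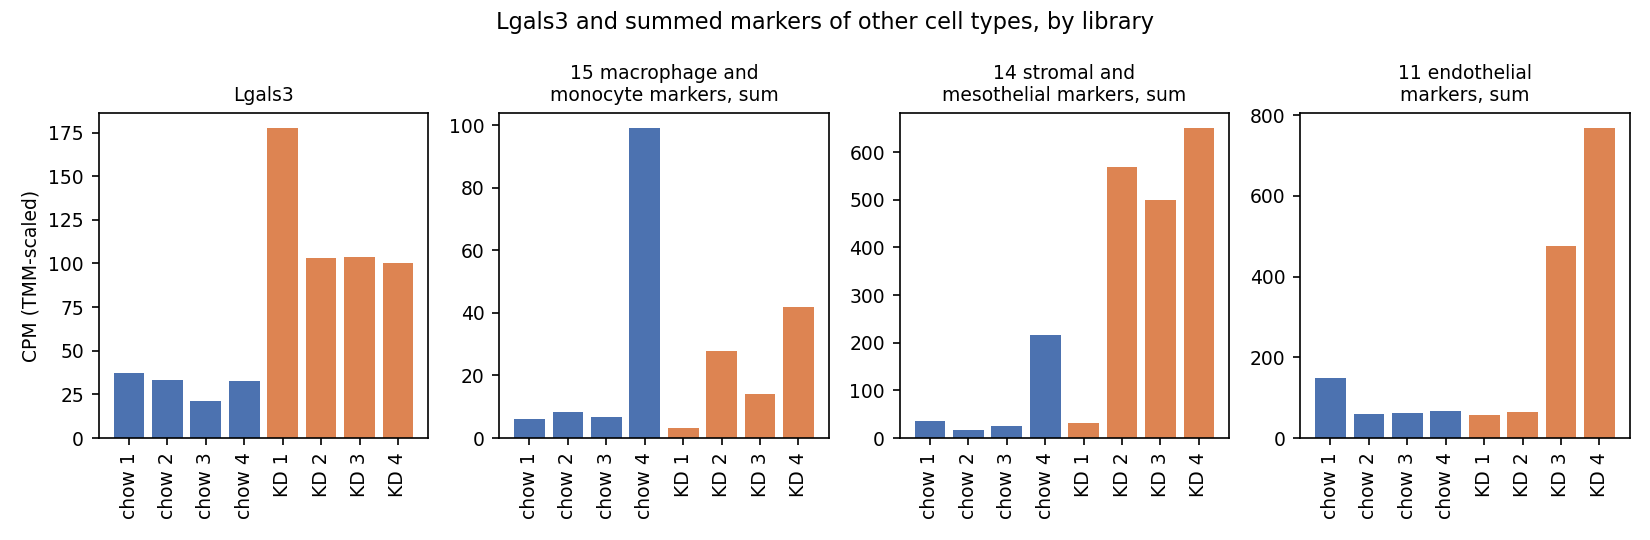
Lgals3 (left) and summed markers of macrophages and monocytes (15, without Ccr2), stromal and mesothelial cells (14) and endothelium (11) in CPM, 1 bar per library, chow in blue and KD in orange. Lgals3 is highest in KD replicate 1 (177 CPM), where the marker sums are 3.29, 32.3 and 56.1 CPM.

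Apart from their most abundant gene, dendritic cell markers summed to 7.73 to 18.1 CPM in chow against 6.27 to 13.6 CPM in KD. That gene, Xcr1, was at 20.7 ± 4.79 CPM in chow against 29.95 ± 6.22 CPM in KD. Neutrophil and mast cell markers other than Kit reached at most 1.13 CPM in chow and 2.24 CPM in KD. Kit itself was at 3.59 ± 2.14 CPM in chow against 8.88 ± 4.75 CPM in KD. Adipocyte markers other than Cfd (0.44 ± 0.85 CPM in chow against 0 in KD) reached at most 1.76 and 1.26 CPM. B cell markers other than Ighm (138 ± 21.0 CPM in chow against 116 ± 23.1 CPM in KD) summed to 30.7 to 46.9 CPM in chow against 59.4 to 87.9 CPM in KD. These ranges did not overlap, and the part of this RNA in the galectin levels was not tested. The αβ T cell markers other than Trbc2 (466 ± 20.4 CPM in chow against 520 ± 65.4 CPM in KD) summed to 307 to 439 and 359 to 432 CPM. Nearly all of this was Trbc1 (253 to 366 CPM) and Trac (51.9 to 128 CPM). Cd4 was at 0 in every library, and Cd8a, Cd8b1 and Foxp3 reached at most 1.61 CPM. Which cells carried the Trbc and Trac RNA was not tested. NK cell and ILC2 markers other than Klrb1c (131 ± 17.1 CPM in chow against 113 ± 16.7 CPM in KD) summed to 106 to 113 and 67.5 to 128 CPM. The 13 γδ T cell markers other than Trdc summed to 9289 to 9891 CPM in chow against 9760 to 10082 CPM in KD.

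Other galectin family genes were scarce in these cells. Of 6 rows, 2 passed the count filter and 0 passed the test (edgeR's quasi-likelihood test, 0 with an unadjusted p under 0.05, 0 by DESeq2 and 0 by limma on FPKM). Lgalsl, a galectin-like gene, was at 27.3, 14.9, 8.90 and 14.7 CPM in chow against 10.5, 9.11, 16.3 and 20.00 CPM in KD, with the diets overlapping (adjusted p = 0.936). Lgals4, a galectin of gut epithelium, was at 2.84 ± 0.66 and 2.43 ± 1.04 CPM (adjusted p = 0.961). Lgals7, an epithelial galectin, had 7 counts over the chow libraries and 29 over the KD libraries, and Grifin, a lens galectin, 15 and 18. Lgals2, a gut galectin, had 0 and 5 counts, and Lgals12, the galectin of adipocytes, had 0 counts in all 8 libraries. A count of 0 allows up to 3 counts, which is 0.0947 to 0.152 CPM in single libraries and covers counting error only. Lgals6 was not analysed here.

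Among 24 genes for proteins reported to bind a galectin, Nrp1 and Itgb1 rose in KD. Of the 23 tested, 2 rose, 0 fell and 21 did not pass, where 0.328% of all tested genes rose and 0.179% fell, and the median log2 fold change was 0.10 beside 0.007 over all genes. The list was chosen with earlier results of these data known, so these counts are a description. Nrp1, a co-receptor for semaphorins and vascular endothelial growth factor, was at 113, 106, 94.2 and 85.5 CPM in chow against 187, 175, 196 and 178 CPM in KD. All KD libraries exceeded all chow libraries (log2 fold change 0.89, SE 0.10, edgeR adjusted p = 0.00747). Itgb1, the β1 chain shared by many matrix and vascular integrins, was at 741, 572, 699 and 589 CPM in chow against 1020.1, 1084, 1108 and 1341 CPM in KD, also with no overlap (0.81 on the log2 scale, SE 0.11, edgeR adjusted p = 0.0169). Nrp1 passed without each single library, whereas Itgb1 did not pass without chow replicate 3 or 4 or KD replicate 2 or 3 (adjusted p = 0.0255 to 0.088 over the 8 such fits). Stromal and endothelial cells express both genes. In KD replicate 1 both stood above every chow library. The stromal sum of that library lay inside the chow range. Its endothelial sum lay below the chow range, but inside it when Fabp4 was left out. Its Krt7, Krt19 and Postn, however, exceeded every chow library too. The part of such RNA in the level of either gene was not tested. Neither gene passed with the stromal marker mean as a covariate (adjusted p = 0.0998 for Nrp1 and 0.386 for Itgb1) or without KD replicates 3 and 4 together (adjusted p = 0.169 and 0.204). Over all genes, edgeR called 6 with that covariate and 4 without those libraries. Over the 19 alternative settings the log2 fold change ran from 0.82 to 1.10 for Nrp1 and from 0.69 to 0.88 for Itgb1. Of the 9785 exonic bases of Nrp1, 80 are shared with Mir1903.

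Havcr2, which encodes the galectin-9 receptor TIM-3, was at 2.80, 4.08, 0 and 0.86 CPM in chow replicates 1 to 4 and between 14.2 and 25.02 CPM in the KD libraries. The diets did not overlap, but the gene did not pass (log2 fold change 3.51, SE 0.94, edgeR adjusted p = 0.214), with adjusted p = 0.0787 to 0.400 over the fits that leave out 1 library. Limma gave it an adjusted p of 0.00184 on log2(FPKM + 1) and 0.0177 on log2(FPKM + 0.1). The glycoprotein genes whose products galectin-1 binds on T cells did not pass: Ptprc (CD45) was at 1148 ± 165 and 1211 ± 149.99 CPM (adjusted p = 0.935) and Spn (CD43) at 132 ± 33.6 and 180.2 ± 7.55 CPM (adjusted p = 0.401). Lag3, a checkpoint receptor that galectin-3 binds, had 3 counts over the chow libraries and 12 over the KD libraries and missed the count filter.

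**Figure D5:**
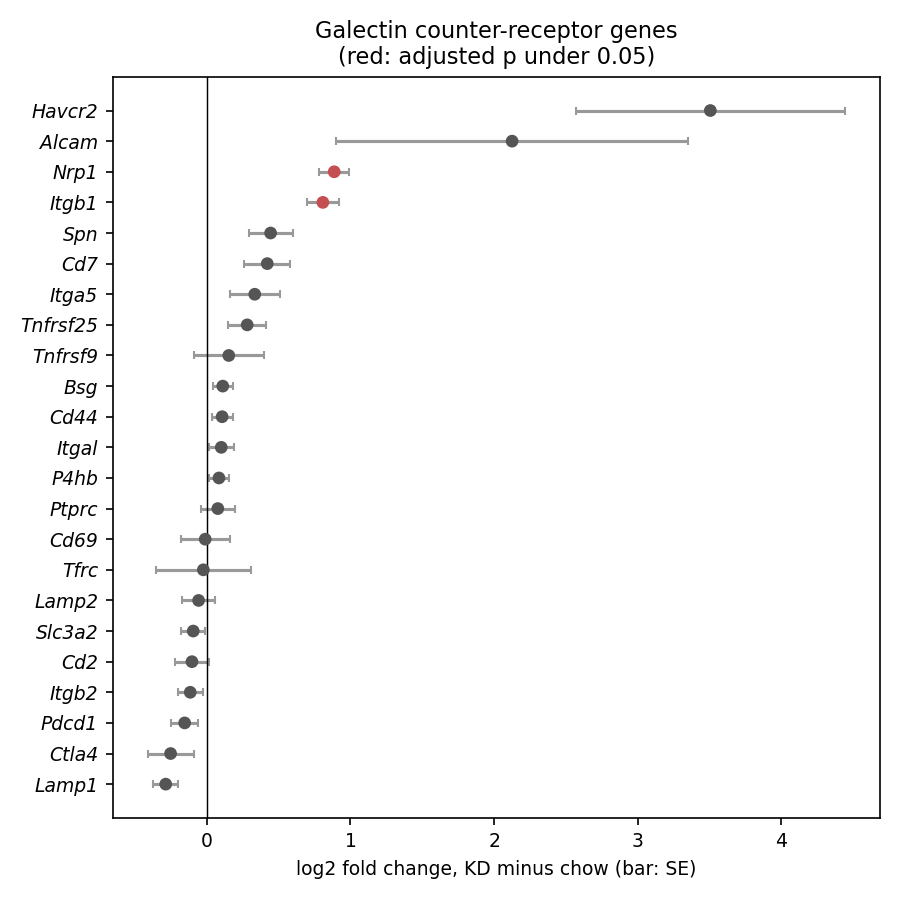
Fitted log2 fold change (KD minus chow, bars are SE) of the 23 tested galectin counter-receptor genes, ordered by size, with genes of adjusted p under 0.05 in red. Nrp1 and Itgb1 are in red near 0.8 to 0.9, and Havcr2 (3.51) has the largest value and a wide error.

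No gene of the lists that build galectin-binding sugars passed edgeR's test. For these lists and those of the paragraphs that follow, the counts over all 13397 genes tested serve as background. Of these genes 1157 had an unadjusted p under 0.05 by edgeR and 292 were called by DESeq2. Limma called 126 on log2(FPKM + 1) and 119 on log2(FPKM + 0.1). Of the 14 tested genes of N-glycan branching and galactose addition 0 passed (edgeR, 1 with an unadjusted p under 0.05, 0 by DESeq2 and by limma on FPKM, median log2 fold change -0.08). Mgat5, which makes the branched N-glycans that galectin-3 prefers, was at 84.2 ± 15.7 CPM in chow against 76.6 ± 12.2 CPM in KD (adjusted p = 0.897). The smallest p-values belonged to the trimming mannosidase gene Man2a2 (log2 fold change -0.35, adjusted p = 0.505) and the branching enzyme genes Mgat4a (-0.44, adjusted p = 0.596) and Mgat2 (0.24, adjusted p = 0.633). Of the 9 O-glycan genes 0 passed (1 with an unadjusted p under 0.05, 1 by DESeq2, 0 by limma on FPKM, median 0.05). Gcnt1, which branches O-glycans into a form that galectin-1 binds, was at 13.1 ± 5.46 and 14.1 ± 3.70 CPM (adjusted p = 0.974). Galnt2, which starts O-glycans, was at 109.6 ± 13.1 and 149.7 ± 20.4 CPM, with no overlap between diets (0.45 on the log2 scale, edgeR adjusted p = 0.240, DESeq2 adjusted p = 0.0467), followed by its relatives Galnt10 (0.35, adjusted p = 0.641) and Galnt3 (1.34, adjusted p = 0.712).

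The caps on those sugars gave 0 of 19 genes past the threshold (edgeR, 2 with an unadjusted p under 0.05, 1 by DESeq2 and 1 by limma on FPKM, median 0.15). Fut7, the fucosyltransferase of selectin ligands, came closest. It was at 21.7, 10.2, 12.7 and 9.74 CPM in chow against 38.8, 45.9, 28.5 and 31.4 CPM in KD, with no overlap (1.41 on the log2 scale, SE 0.28, edgeR adjusted p = 0.0762). Of the edgeR fits that leave out a single library, it passed in 1, without chow replicate 1 (adjusted p = 0.0255). In the others its adjusted p reached up to 0.224. It did not pass with the stromal marker covariate or the replicate block either. St6gal1, whose sialic acid caps keep galectin-1 from binding, was at 186 ± 14.6 and 143 ± 22.5 CPM (-0.38 on the log2 scale, SE 0.12, adjusted p = 0.330), and Slc35a1, which carries the sialic acid donor into the Golgi, had -0.32 (adjusted p = 0.605).

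Inside the cell, 24 tested genes of the response to damaged lysosomes and of nutrient sensing at the lysosome, where galectin-8 and galectin-9 act, gave 0 calls (edgeR, 1 with an unadjusted p under 0.05, 0 by DESeq2 and by limma on FPKM, median -0.006). Trim16, a partner of galectin-3 at damaged membranes, was at 36.8 ± 4.61 and 34.2 ± 5.92 CPM (adjusted p = 0.938). Slc38a9, a lysosomal arginine sensor, was at 20.8 ± 5.16 and 11.6 ± 4.27 CPM with no overlap (adjusted p = 0.453), and the Ragulator genes Lamtor3 (0.28, adjusted p = 0.638) and Lamtor5 (0.24, adjusted p = 0.667) followed.

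Interferon response genes, a class to which Lgals9 and Lgals3bp are often assigned, gave 0 calls among 24 tested (edgeR, 2 with an unadjusted p under 0.05, 2 lower by DESeq2, 0 by limma on FPKM, median 0.01). Gbp2, an interferon-induced GTPase, differed by -0.38 on the log2 scale (KD minus chow, adjusted p = 0.216) and Rtp4, an interferon-induced chaperone, by 0.56 (adjusted p = 0.617).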

How the data were processed

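The authors deposited estimated counts (expected counts) per gene and FPKM values for the same 8 samples. The submitters' processing notes name BWA, TopHat2, RSEM, DESeq2 and the build GRCm38, without roles or versions. Columns were mapped to samples by title. Counts were rounded, filtered with filterByExpr (minimum count 10, total 15; 13397 of 47729 genes kept) and scaled with TMM factors. Diets were compared over all kept genes with edgeR's quasi-likelihood F test (two-sided, robust; only diet as a term) and Benjamini-Hochberg adjustment at 0.05. The SE is the absolute fold change over the square root of F. Intervals and floors cover counting error only. Versions were edgeR 4.0.16, DESeq2 1.42.0 and limma 3.58.1 under R 4.3.3; the edgeR steps were tested on simulated data. The members, gene lists and alternatives were chosen with earlier results of these data known. Genes named are the members and their family, the 3 smallest p-values and all calls of each list, preset partners, the 3 nearest patterns of members that vary at least 2-fold, and the most abundant marker of each cell type. One gene that this rule names is not reported here. Lag3, Adgre1, Ms4a7 and the genes within marker sums were added after their values were seen. Estimated counts divide reads between similar genes, and FPKM keeps no library depth.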

Additional observations from a re-analysis of the deposited data

Results flagged for a closer look

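In 66 groups of 4 libraries (33 named genes, each in both diets), 3 held a library far from the other 3 by Dixon's ratio at its 95% critical value, which chance passes in about 5% of groups. Lgals3 was at 177 CPM in KD replicate 1, and the other KD libraries lay between 100.1 and 103 CPM. Ccr6 was at 114 CPM in the same library, with 56.8 to 66.0 CPM in the others. It was examined because its pattern was nearest to that of Lgals3, so its flag is not separate from that of Lgals3. Havcr2 was at 14.2 CPM in KD replicate 3, with 23.4 to 25.02 CPM in the others.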

How the results depend on the processing

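The fold changes of Lgals1, Lgals3 and Lgals3bp were positive in all 19 alternatives, and without single libraries they ran from 0.17 to 0.32, 1.72 to 2.06 and 0.40 to 0.48; Lgals8 ran from -0.18 to 0.04 and Lgals9 from -0.004 to 0.13. With a stromal marker covariate Lgals3 had 2.52 and Lgals3bp 0.55; 6 genes were then called over all, 1 member and 0 counter-receptors. No pairing of samples by replicate number was seen (correlation of same-numbered deviations -0.114 to 0.0536, and in 0 of 4 numbers was the own number best on both sides). With so few samples this cannot exclude that same-numbered samples were handled together. With a replicate block 12 genes were called over all, 1 member and 0 counter-receptors. Over all genes 68 were called, 108 with a filter of 5 CPM in 4 samples, 292 by DESeq2, 126 and 119 by limma on log2(FPKM + 1) and log2(FPKM + 0.1), and 12 to 44 without single libraries. Without KD replicates 3 and 4 together 4 were called, 0 of them members and 0 counter-receptors. Without single libraries 0 to 1 members and 1 to 2 counter-receptors were called. Capping genes gave 1 call with the 5 CPM filter, DESeq2 and both FPKM fits, and 0 to 1 without single libraries; DESeq2 also called 1 O-glycan and 2 interferon genes. The cause of these changes was not tested, beyond the fewer samples or genes some alternatives hold. The FPKM files carry no depth, and genes near the floor, such as Lgals2 and Lgals7, cannot show a change of ordinary size at this depth.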
